A study of Arabidopsis thaliana with 6 samples.

Results

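COR15A (AT2G42540, on chromosome 2) is the gene described here, read from the 1 probe set that the annotation pairs with it alone, 263497_at, among 22746 probe sets tested. The gene was chosen with its values in view: its level in each of the 6 arrays, its range within each genotype, the difference between genotypes with and without replicate 1, and its place among probe sets by spread. Those values are therefore given as a description, without a test. The samples were whole Arabidopsis thaliana seedlings aged 10 days, hybridised to ATH1 arrays (Affymetrix), on which short oligonucleotides, grouped in probe sets, capture labelled transcripts. The wild type Col-0 gave 3 arrays, and rns2-2, a mutant in the Col-0 background named for the RNase T2 ribonuclease gene RNS2, gave the other 3. All 6 samples were raised on MS-agar at 21 °C with 16 hours of light per day at 120 µmol per m2 per s, and the labels name no cold treatment. They describe the 3 samples of a genotype as independent biological samples. The hour of harvest was not given in the sources used here, rns2-2 was the 1 mutant allele measured, and no probe set was paired with RNS2 itself, so its level was not analysed here.

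COR15A encodes a small protein of the chloroplast stroma, of the late embryogenesis abundant type, that protects membranes of the chloroplast when cells freeze and lose water. Its transcript is a standard marker of cold acclimation. In the cold, CBF (DREB1) transcription factors bind the CRT/DRE element of its promoter, drought and abscisic acid also induce it, and the circadian clock gates how strongly the CBF pathway responds.

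Values are log2 signals, so 1 unit is a factor of 2 in signal, a scale inferred from their range of 3.21 to 14.49. The array medians lay between 6.51 and 6.66. Replicate 1 stood apart from replicates 2 and 3 in both genotypes. Across all probe sets, the SD of the difference between replicates 2 and 3 came to 0.20 for Col-0 and 0.31 for rns2-2, while replicate 1 differed from the mean of these arrays with an SD of 0.57 for Col-0 and 0.58 for rns2-2. If replicates 2 and 3 shared material, the tests measured partly technical spread. Seedlings hold many cell types, so fewer cells with the transcript and less transcript per cell cannot be told apart. The shoot marker RCA, 1 of 13 listed, lay between 13.66 and 14.14 in all arrays. Of the 10 root markers 3 were measured, with a summed log2 level of 12.47 to 12.76 in Col-0 and 12.60 to 12.87 in rns2-2. Nearly all of that was PYK10, since EXPA7 and EXPA18 had arrays below the array medians. In replicates 1, 2 and 3 of rns2-2, EXPA7 read 6.89, 5.82 and 5.22 and EXPA18 6.46, 6.10 and 5.48. RCA (14.14, 13.70 and 13.66) and PYK10 (12.83, 12.81 and 12.58) fell in the same order there, the reverse of the COR15A order. For each of these genes 1 of the steps was very small. In Col-0 the root markers were highest in replicate 3, where COR15A was lowest, but RCA was not. The part of organ content in the COR15A levels was not tested. No seed marker was measured, of 4 listed. Here and below, a gene counted as not measured had no probe set that the annotation pairs with it alone. The annotation left out 8730 probe sets, so the array may still hold probes for such genes.

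The COR15A level was 6.90, 8.28 and 6.12 in replicates 1, 2 and 3 of Col-0. In rns2-2 it was 7.66, 10.38 and 11.86. Replicates 2 and 3 of rns2-2 were above every Col-0 array, whereas replicate 1 of rns2-2 lay below replicate 2 of Col-0, so the genotypes overlapped. Of the 9 pairs of an rns2-2 and a Col-0 array, rns2-2 was higher in 8, by 1.70-fold to 53.5-fold, and lower in 1, by 1.53-fold. Replicate 3 of Col-0, the lowest array, was below the median of all probe sets, and without detection calls it could not be separated from background. The largest fold may therefore be a lower limit.

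**Figure D1:**
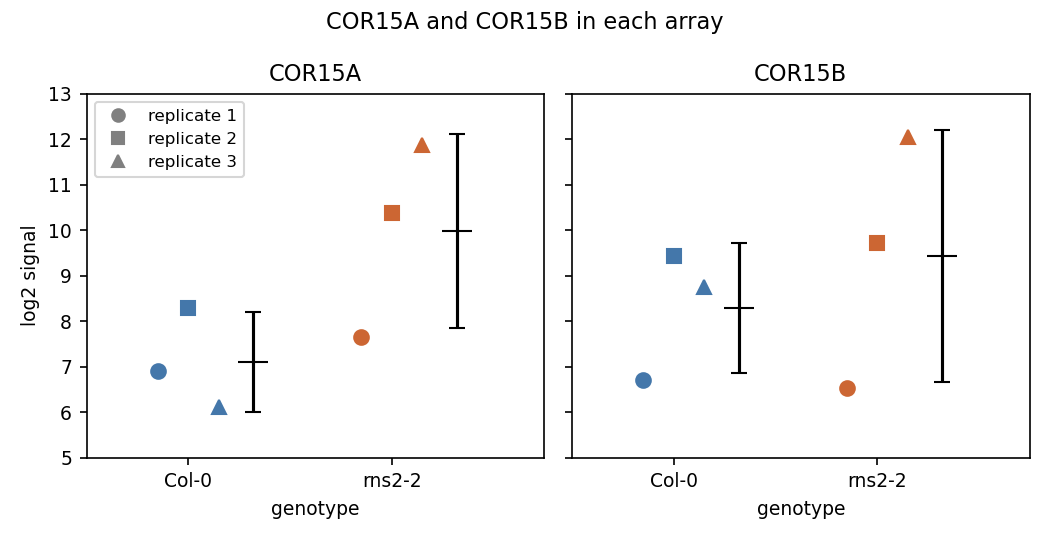
Log2 signal of COR15A and COR15B in the 6 arrays, by genotype. Symbols mark the replicate number, and the bar beside each group is the mean ± SD of 3 arrays; COR15A reached 11.86 and COR15B 12.05 in replicate 3 of rns2-2, and replicate 1 of each genotype lay between 6.53 and 7.66 for both genes.

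Within rns2-2 the level ranged more widely than the genotype means differed. The range was 2.16 in Col-0, a 4.46-fold difference between replicates 2 and 3. In rns2-2 it was 4.20, an 18.4-fold difference between replicates 1 and 3. The mean was 7.10 ± 1.09 for Col-0 and 9.97 ± 2.13 for rns2-2 (SD, n = 3 arrays each), a difference of 2.87 log2 units (rns2-2 minus Col-0, limma SE 1.12), or 7.30-fold. The median difference over all probe sets was -0.04. Only 1 probe set, 256766_at, which has no gene name here, had a larger positive difference, also 2.87, and the next named gene, AT5G03350 in place 4, stood at 2.22.

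Leaving out replicate 1 of both genotypes raised the COR15A difference to 3.92 (SE 0.67), with 8.28 and 6.12 in Col-0 against 10.38 and 11.86 in rns2-2. Without replicate 1 of rns2-2 alone it was 4.02, and without replicate 1 of Col-0 alone it was 2.77. The lowest value, 1.92 (SE 0.99), came without replicate 3 of rns2-2. Without replicate 2 or replicate 3 of Col-0 it was 3.46 and 2.38, and without replicate 2 of rns2-2 it was 2.66. With replicates 2 and 3 of each genotype averaged into 1 sample it was 2.34 (SE 1.28). The direction was the same in each of these fits, and the size moved most with the choice of rns2-2 arrays.

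The spread of COR15A within genotype was 1.69 log2 units (the square root of the mean of the 2 within-genotype variances), which placed it 71st of 22746 probe sets from the top, where the median was 0.20. The place depended on the arrays used: leaving out replicate 1, 2 or 3 of Col-0 gave place 25, 130 or 113, leaving out replicate 1, 2 or 3 of rns2-2 gave 155, 43 or 133, and leaving out both arrays of replicate 1 gave 11. With all 6 arrays, its neighbours in that order, 254343_at and 258321_at, stood at 1.70 and 1.69. Among the 2989 probe sets whose mean level lay within 0.5 log2 units of that of COR15A (8.54), the median spread was 0.27 and 19 had a larger one. By range over the 6 arrays, 5.74, COR15A was in place 12. COR27, a cold-induced regulator that acts in the clock and in light responses, had the largest spread of all probe sets, 3.53.

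**Figure D2:**
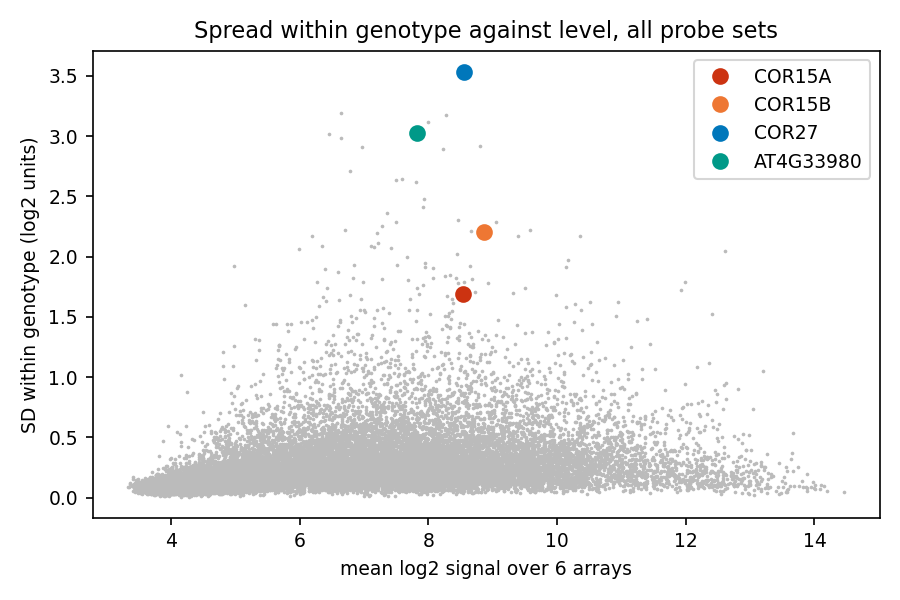
Within-genotype SD (log2 units) against the mean log2 signal over 6 arrays for all 22746 probe sets, with 4 cold-regulon genes coloured. COR15A (1.69) and COR15B (2.20) lie far above most probe sets of like signal (median 0.27 near COR15A), and COR27 (3.53) lies highest.

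Replicate 1 carried most of the COR15A spread, as in the other widely spread probe sets, but a smaller share than in nearly all of them. In the 100 probe sets of largest spread, the contrast of replicate 1 with the mean of replicates 2 and 3 carried a median of 99.05% of the within-genotype sum of squares. For COR15A it carried 70.2%, and 1 of the 100 had a lower share, 58.6%. The median over all probe sets was 72.4%, so the share of COR15A was usual for a probe set and low for one of such spread. In Col-0, replicate 1 differed from the mean of the other arrays by -0.30, and 39.6% of probe sets differed by more. In rns2-2 the same difference was -3.46, the 66th largest.

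Replicates 2 and 3, which were alike over most probe sets, differed in COR15A. The difference of 2.16 between them in Col-0 was the largest of all 22746 probe sets, ahead of 244990_s_at at 1.41 and UGT76E12, a glycosyltransferase, at 1.29. The median over all probe sets was 0.15. In rns2-2 the difference was 1.48 and the 86th largest, and it ran the other way, with replicate 3 above replicate 2. Over both genotypes together, the root mean square of these differences was 1.85 for COR15A, in place 11, and 1.71 for COR15B, in place 18. For COR27 it was 0.13, so the gene of largest spread had nearly equal levels in replicates 2 and 3.

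**Figure D3:**
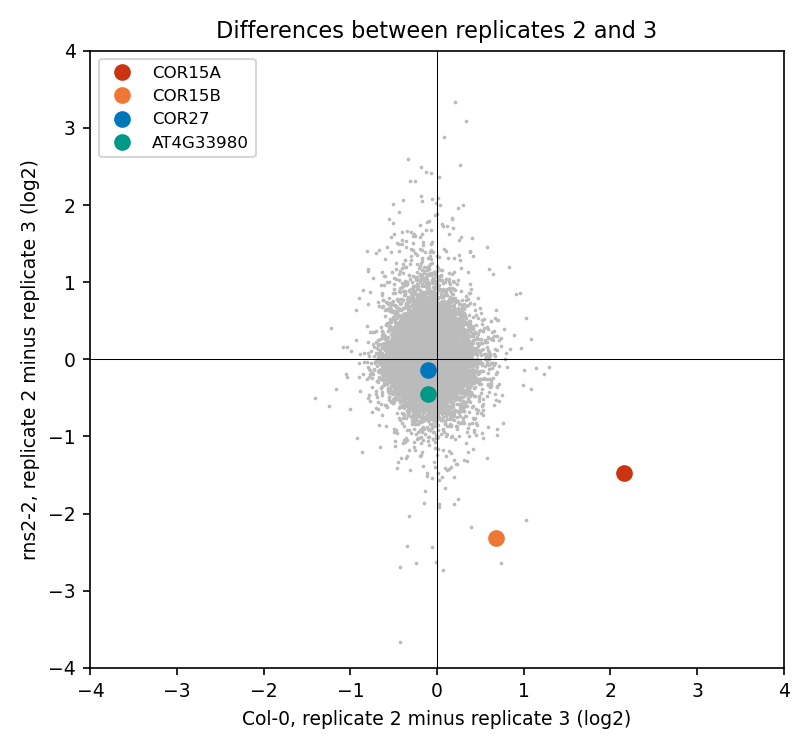
Log2 difference between replicates 2 and 3 in Col-0 (horizontal) and in rns2-2 (vertical) for all 22746 probe sets. COR15A lies at 2.16 and -1.48, farthest to the right of all probe sets; COR15B lies at 0.68 and -2.32 on the same side, while COR27 lies near 0 in both.

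COR15B, the paralog of COR15A and its immediate neighbour on the chromosome, encodes a similar chloroplast protein. Col-0 replicates 1, 2 and 3 had levels of 6.70, 9.44 and 8.76, and those of rns2-2 6.53, 9.73 and 12.05. As with COR15A, replicate 2 was the highest Col-0 array and replicate 3 the highest rns2-2 array, but COR15B was low in replicate 1 of both genotypes. The genotypes overlapped, and the difference of 1.14 (rns2-2 minus Col-0, SE 1.45) did not pass the test (limma adjusted p = 0.774). It was -0.17 without replicate 3 of rns2-2 and 1.79 without replicate 1 of both genotypes, so 1 array decided its sign. The log2 ratio of COR15A to COR15B, relative to its Col-0 mean, came to 1.40, 0.04 and -1.44 for Col-0 and 2.33, 1.86 and 1.01 for rns2-2. The paralogs thus changed unequally among arrays, and the genotypes overlapped in this ratio as well. How far the probes of each gene bind the other's transcript was not tested.

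The other genes of the cold regulon were taken from a list of 26, of which the annotation paired 6 with a probe set of their own. None of the 6 passed the limma test over all probe sets at an adjusted p of 0.05. There 1 probe set passed, or 0.00440% of those tested, and it was lower in rns2-2. At an unadjusted p under 0.05, 1 of the 6 passed, beside 10.7% of all probe sets. The genotypes did not overlap for 1 of the 6, beside 18.5% of all probe sets. The difference was above 0 for 2 and below 0 for 4, with a median of -0.52, beside -0.04 over all probe sets. The median spread within genotype of the 6 was 1.59, beside 0.20.

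The dehydrins COR47 and LTI30, hydrophilic proteins that protect cells from water loss, had lower means in rns2-2 than in Col-0. COR47 was bright throughout, with 10.92, 11.87 and 11.78 on the Col-0 arrays and 11.05, 11.33 and 10.91 on those of rns2-2. LTI30 had levels of 8.96, 9.96 and 10.40 on the Col-0 arrays and 9.83, 9.01 and 8.64 on those of rns2-2. Neither followed COR15A: in rns2-2, LTI30 was highest in the array where COR15A was lowest. Their differences were -0.43 (SE 0.28, limma adjusted p = 0.595) and -0.61 (SE 0.45, limma adjusted p = 0.626), and the genotypes overlapped for both. Without replicate 1 of both genotypes the differences were -0.71 and -1.35, and both passed (limma adjusted p = 0.0293 and 0.00336), in a fit where 14.3% of all probe sets passed. With replicates 2 and 3 of each genotype averaged they were -0.29 and -0.24, and neither passed (limma adjusted p = 0.937 and 0.959). In that averaged fit 0 probe sets passed, so it could not set these genes apart.

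COR27 and AT4G33980 followed the replicate number. COR27 was 4.33 in replicate 1 of Col-0 and 4.62 in replicate 1 of rns2-2, and between 10.49 and 10.67 in the other 4 arrays. AT4G33980 was 4.50 in replicate 1 of Col-0 and 4.22 in replicate 1 of rns2-2. In replicates 2 and 3 of Col-0 it was 10.30 and 10.41, and in those of rns2-2 it was 8.53 and 8.98. Both genes were thus near the bottom of the scale in replicate 1 of either genotype, a step that COR15A did not show in Col-0. Their genotype differences were 0.06 (SE 2.33) and -1.16 (SE 2.00), and neither passed (limma adjusted p = 0.995 and 0.833). Without replicate 1 of both genotypes, AT4G33980 was lower in rns2-2 by a log2 difference of -1.60 (limma adjusted p = 0.000962), while COR27 stood at -0.05. With replicates 2 and 3 of each genotype averaged, AT4G33980 stood at -0.94 and did not pass (limma adjusted p = 0.964), in a fit where 0 probe sets passed.

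STZ (ZAT10), a zinc finger repressor induced by cold, drought and other stresses, was the member of the 6 without overlap. It read 9.30, 10.61 and 10.26 on the Col-0 arrays and 8.74, 6.34 and 7.67 on those of rns2-2. Every rns2-2 array was below every Col-0 array, in the opposite direction to COR15A. The difference of -2.47 (SE 0.65) did not pass over all probe sets (limma adjusted p = 0.343). It was -3.43 without replicate 1 of both genotypes (limma adjusted p = 0.000861). In that fit, where 14.3% of all probe sets passed, 4 of the 6 genes passed, COR47, LTI30, AT4G33980 and STZ, all of them lower in rns2-2. It kept only replicates 2 and 3, and if these shared material its p-values measured partly technical spread. With replicates 2 and 3 of each genotype averaged, STZ stood at -1.99 (limma adjusted p = 0.935), and 0 probe sets passed.

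**Figure D4:**
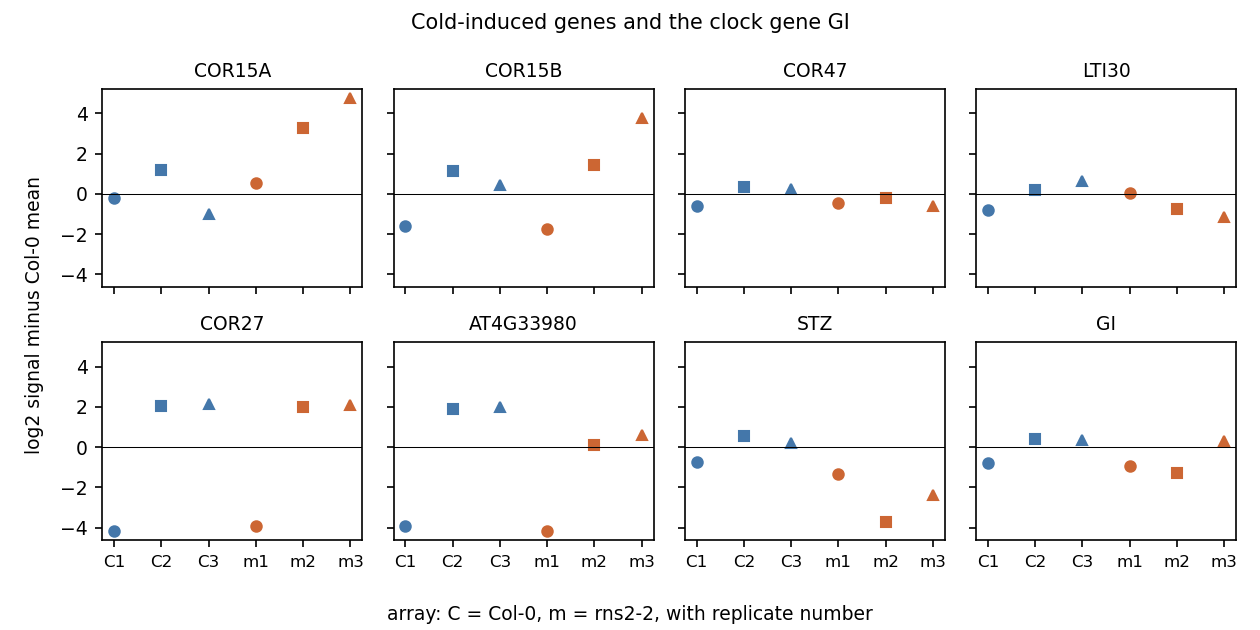
Log2 signal minus the gene's Col-0 mean in the 6 arrays (C1 to C3 Col-0, m1 to m3 rns2-2) for the 7 measured cold-regulon genes and GI. COR15A and COR15B are highest in replicate 3 of rns2-2, COR27 and AT4G33980 are lowest in replicate 1 of both genotypes, and STZ is lower in each rns2-2 array than in each Col-0 array.

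Little of the upstream pathway was measured by named probe sets. Of 36 regulators of cold signalling 2 were measured, and 0 passed with limma, also at an unadjusted p under 0.05 with the brighter probe set of each gene. EIN3, an ethylene-response factor that represses CBF genes, lay between 8.90 and 9.50 in all arrays, and its difference was 0.02 (SE 0.17). SIZ1, a SUMO ligase that stabilises the CBF activator ICE1, lay between 7.74 and 8.37 by its brighter probe set, with a difference of 0.20 (SE 0.16). Its dim probe set, at 4.19 to 4.61, pointed the other way, at -0.25 (SE 0.11). By that probe set every rns2-2 array was below every Col-0 array, as for 11.2% of all probe sets, while by the brighter the genotypes overlapped. Neither regulator varied by as much as 1 log2 unit over the 6 arrays. Of 36 genes of abscisic acid and drought response 1 was measured, LEA4-5, a late embryogenesis abundant protein. It was dim, at 4.86 to 5.88, below every array median, with a difference of -0.21 (SE 0.28, limma adjusted p = 0.788).

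Of 18 clock genes 1 was measured, GI, an evening gene of the clock that also acts in cold tolerance. It read 7.10, 8.26 and 8.24 on the Col-0 arrays and 6.91, 6.60 and 8.16 on those of rns2-2. In Col-0, replicates 2 and 3 were alike and above replicate 1. In rns2-2, replicate 3 was above both other arrays, by 1.56 over replicate 2, the array pair in which COR15A differed by 1.48 in the same direction. The genotypes overlapped, with a difference of -0.64 (SE 0.50, limma adjusted p = 0.642).

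Among the 5 loci on either side of COR15A in the gene order, the annotation paired 5 of 10 with a probe set of their own, COR15B among them. The other 4 had ranges over the 6 arrays of 0.76 to 0.99 log2 units, above the median of all probe sets (0.58) and below the 5.74 and 5.52 of COR15A and COR15B. AT2G42490 and AT2G42520 had differences of -0.36 (SE 0.20) and -0.07 (SE 0.22), AT2G42560 -0.47 (SE 0.15) and TBL39, of a family that acetylates wall polymers, 0.41 (SE 0.22). None of the 5 passed with limma (adjusted p 0.388 to 0.913), and 1 had an unadjusted p under 0.05, beside 10.7% of all probe sets. That locus, AT2G42560, was dim at 4.71 to 5.53. Without replicate 1 of both genotypes, where 14.3% of all probe sets passed, AT2G42490 (-0.66, limma adjusted p = 0.0217) and TBL39 (0.71, limma adjusted p = 0.0382) passed. With replicates 2 and 3 of each genotype averaged they stood at -0.22 and 0.26, and neither passed (limma adjusted p = 0.935 for both). In that averaged fit 0 probe sets passed.

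The genes most like COR15A were sought among 455 single-locus probe sets with a range of at least 2 log2 units, by Pearson r with COR15A over the 6 arrays. The median r of these probe sets was -0.29, so more of them had a negative r than a positive one. The r values are a description over 6 arrays that share the genotype difference and the standing of replicate 1. AT1G27030 was the most alike (r = 0.960), with 7.32, 7.24 and 6.79 for Col-0 and 6.98, 8.44 and 9.09 for rns2-2. Like COR15A, it was lowest in replicate 3 of Col-0 and highest in replicate 3 of rns2-2. AT1G06100 (r = 0.909) lay at 5.63 to 5.91 for Col-0 and at 5.79, 7.20 and 7.91 for rns2-2. AT1G80280, AT1G31690 and AT1G48330 followed at 0.894, 0.877 and 0.860. The remaining genes of the first 10 were AT2G25510, AT3G13650, AT1G03820, AT1G19960 and AT3G22240, at 0.845 to 0.813.

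Of these 10 genes, picked for their likeness, 9 shared with COR15A its highest array, replicate 3 of rns2-2, and AT3G13650 was highest in replicate 2. Their ranges, 2.01 to 3.78, were smaller than that of COR15A. For 4 of the 10 the genotypes did not overlap, with rns2-2 higher, as for 7.23% of all probe sets, but the genes were picked by their likeness to a gene with that difference. COR15B was in place 14 with r = 0.792. By deviations from the genotype means, which leave out the genotype difference, AT1G27030 was again first (r = 0.938), AT3G50650 followed (0.927) and COR15B was in place 3 (0.870). Of the first 10 genes by one measure, 1 was among the first 10 by the other, AT1G27030, and allowing ranges from 1 log2 unit left 2 of the 10 in place.

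The 5 genes picked for the most opposite profiles had r from -0.936 to -0.916, and all were lowest in replicate 3 of rns2-2. That choice favours genes low in the array where COR15A was highest. AT2G32150 (r = -0.936) had levels of 11.98, 11.60 and 11.66 for Col-0 and 10.85, 9.63 and 8.97 for rns2-2. AT3G62950 (r = -0.917) had the widest swing of the 5, from 9.19, 9.48 and 9.60 in Col-0 to 7.54, 6.21 and 4.53 in rns2-2. In rns2-2, replicate 1 was the nearest array to the Col-0 mean for all 5 genes, as for COR15A, by which they were picked. Their ranges within Col-0 ran from 0.20 (AT5G59400) to 0.79 (AT4G39675). AT5G59400, AT4G39675 and AT1G68440 made up the 5. The gene table gives none of the like or opposite genes a symbol.

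**Figure D5:**
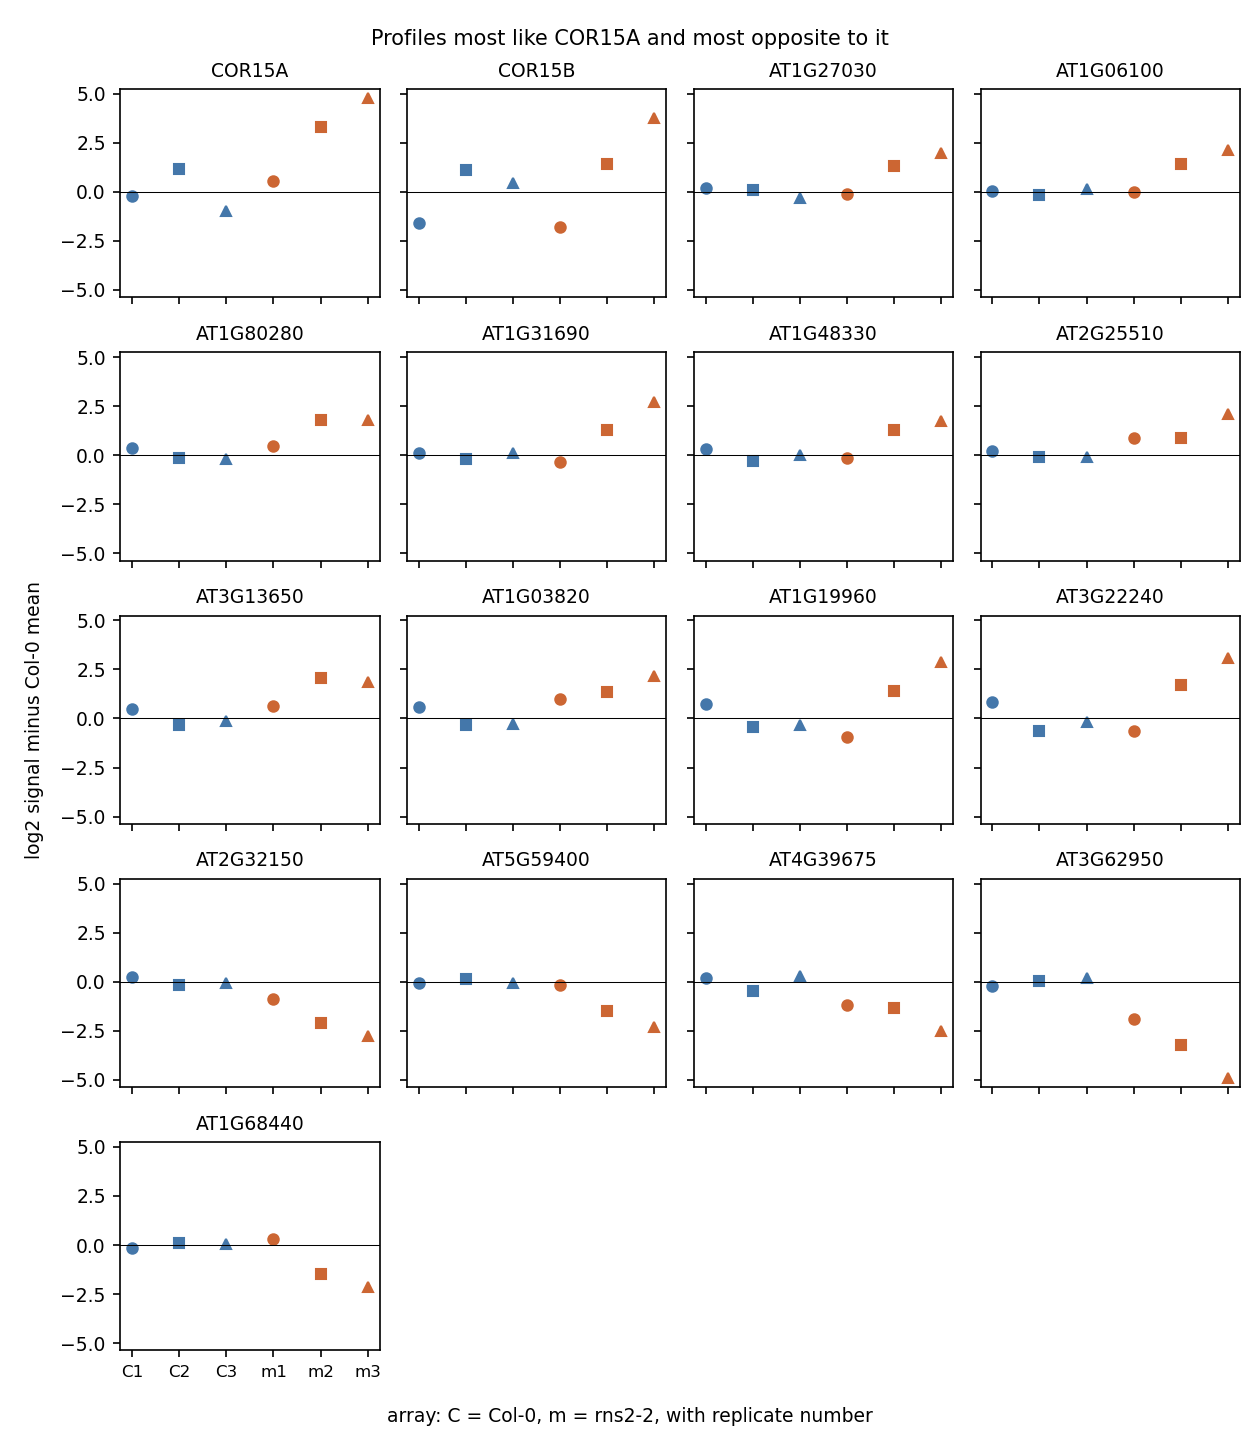
Log2 signal minus the gene's Col-0 mean in the 6 arrays for COR15A, COR15B, the 10 genes of highest Pearson r with COR15A (0.813 to 0.960) and the 5 of lowest (-0.936 to -0.916). The 10 like genes lie above 0 in replicates 2 and 3 of rns2-2, the 5 opposite genes lie below 0 there, and the Col-0 arrays of these genes stay within 1 log2 unit of 0.

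By comparison, the 10 named genes of largest spread were set by replicate 1. In 8 of them replicate 1 was the lowest array of both genotypes, COR15B among them, in AT1G65490 it was the highest of both, and AT2G16660 was low in replicate 1 of Col-0 and nearly level in rns2-2 (8.18, 8.09 and 8.79). Replicate 1 carried 84.9% (COR15B) to 99.97% (COR27) of their within-genotype sum of squares. For AT1G56300, for example, replicate 1 had levels of 5.18 (Col-0) and 4.07 (rns2-2), and the other arrays 9.23 to 10.56. COR15A, with 7.66 in replicate 1 of rns2-2 and 6.90 in replicate 1 of Col-0, was below the other arrays in rns2-2 and between them in Col-0.

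Control probe sets differed between the arrays as well. The RNA controls that labelling kits add had mean log2 signals of 5.99, 5.53 and 5.48 on the Col-0 arrays and 5.67, 6.28 and 6.47 on the rns2-2 arrays. They were highest in replicates 2 and 3 of rns2-2, the arrays with the most COR15A signal. They were lowest in replicate 3 of Col-0, the array with the least. Replicate 1 of Col-0 had higher controls than replicate 2 of Col-0 and replicate 1 of rns2-2, but less COR15A signal. The whole range of these controls was 0.997, beside 5.74 for COR15A. For the control transcripts of ubiquitin, actin and GAPDH, the signal at the 3' end minus that at the 5' end, a sign of RNA integrity, came to 3.01, 1.98 and 2.26 on the Col-0 arrays and 1.49, 1.93 and 2.44 on the rns2-2 arrays. Within rns2-2 it had the same order as COR15A, and in Col-0 it did not. The part of either in the COR15A levels was not tested.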

How the data were processed

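The authors deposited 1 log2 signal per probe set and array, and the submitters' processing notes name Affymetrix Expression Console as the software; the log2 scale was inferred from the values. Its algorithm and version, whether arrays were normalized to each other, and detection calls are not given in the sources used here. Of 22810 probe sets, 64 controls were left out. A platform annotation, updated through RefSeq gene identifiers (TAIR10.1 gene table, used only for names and gene order), paired 13436 probe sets with 1 locus and 503 with several; 8730 were outside the annotation and 77 had an entry with no locus in the gene table. List members were found by locus, counting the brightest of several probe sets.

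Genotypes were compared by R 4.3.3 and limma 3.58.1 (lmFit, then eBayes, 6 arrays, no block, two-sided, Benjamini-Hochberg over 22746 probe sets, threshold 0.05), a step tested on simulated data. The simulated noise was independent and of equal size in all arrays of a probe set. It did not copy the closeness of replicates 2 and 3, so its error rates may not hold here. SD is over 3 arrays, whose number limits the precision. COR15A, the lists and the alternatives were chosen with earlier results of these data known. Named were all measured cold-regulon genes, up to 6 of each other list by range, measured loci within 5 places of COR15A, the 10 most like and 5 most opposite profiles, and the 10 widest spreads; of these last, some are given in counts. The alternatives were quantile normalization, median centring, filters on dim probe sets, a trend or robust prior, array weights, a replicate block, leaving out arrays, averaging replicates 2 and 3, and leaving out multi-transcript probe sets. No sequence of COR15A is printed, because no sequence table was used here.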

Additional observations from a re-analysis of the deposited data

How the results depend on the processing

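In all 17 alternatives the COR15A difference kept its sign and moved by less than its within-genotype SD (1.92 to 4.02), and its spread ran from 1.07 to 2.24. Filters on probe sets, the trend or robust prior and the replicate block cannot change that difference or spread, so they do not test them. Without single arrays the difference ran from 1.92 to 4.02 and the number of probe sets past the threshold, 1 as reported, from 1 to 333. That number was 435 with array weights, 3262 without replicate 1 of both genotypes and 0 with replicates 2 and 3 averaged (limma, a fit with fewer samples). Of the 6 other cold-regulon genes, 1 passed with array weights (STZ), 4 without replicate 1 of both genotypes and 0 in the remaining 15; regulators and the clock list gave 0 in all 17, and the drought list in the 16 that kept LEA4-5, which a filter at the median removes. Some differences changed sign. COR27 was -0.16 with array weights, -0.054 without replicate 1 of both genotypes and -2.04 to 2.04 without single arrays. EIN3 was -0.031 with median centring, -0.057 with replicates 2 and 3 averaged and -0.14 to 0.16 without single arrays. Without single arrays, COR15B ran from -0.17 to 2.59, AT4G33980 from -3.11 to 0.35 and AT2G42520 from -0.28 to 0.098. COR27 and AT4G33980 were far lower in replicate 1 of both genotypes, so leaving out 1 array moved the mean of that genotype alone. The cause of the other sign changes was not tested. With the replicate block the COR15A difference was again 2.87 (SE 1.04), and 1 probe set passed, which was lower in rns2-2. The correlations of deviations between arrays of one number were 0.06, -0.06 and 0.14, so no pairing by number was seen over all probe sets. COR27 and AT4G33980 nevertheless followed the number (SE 0.13 and 0.33 with the block, 2.33 and 2.00 without). Of the 10 most like genes, 1 remained by deviations from the genotype means and 2 with ranges from 1 log2 unit. Dim levels could not be set against background.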
